A study of Mus musculus with 8 samples.

Results

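The cytosolic ribosomal protein (RP) genes were followed during the first hours of the serum-to-2i transition. They were taken as the protein-coding genes of the GENCODE M21 annotation whose symbol is Rpl or Rps followed by a digit, together with Rplp0, Rplp1, Rplp2, and Rpsa, and without the S6 kinases and 5 diverged paralogs. This rule gave 85 of the 37263 counted genes. Of these, 76 encode ribosomal subunits, 5 carry a pseudogene symbol although annotated as protein coding (Rpl10-ps3, Rpl36a-ps1, Rpl9-ps1, Rpl9-ps6, and Rps12-ps3), 3 are second copies (Rpl36al, Rpl39l, and Rps27rt), and 1, Rps19bp1, binds a ribosomal protein and is no subunit. 2 genes of the rule, Rpl24 and Rpl36-ps4, were not analysed here.

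E14 mouse ESCs of the 129/Ola strain, a line that needs no feeder cells, were moved from medium with 15% fetal calf serum and LIF to 2i, and RNA was sequenced at 4, 16, 24, and 32 hr in the absence or presence of 17 µM vitC. The serum-free 2i medium (here NDiff 227 with LIF) holds a MEK inhibitor, PD0325901, and a GSK3 inhibitor, CHIR99021, and all 8 samples received both. The labels give PD0325901 at 1 mM and CHIR99021 at 3 mM. The methods text states both in micromolar units. Each combination of time and treatment was 1 library of ribosomal RNA-depleted total RNA, so no value below has a replicate culture behind it, and no serum library was used here. The libraries held 4753528 to 18434932 counts, with the smallest at 16 and 24 hr with vitC. The names of the deposited tables carry the number 8 for the 4 and 24 hr libraries and 7 for those of 16 and 32 hr. These were read as sequencer lanes, which no label states. Comparisons of 24 with 4 hr and of 32 with 16 hr therefore lie within a presumed lane, and in those of 16 or 32 with 4 hr it cannot be told apart from time. Reads on Lars2 and on 2 small features that vary with it (Gm23935 and ENSMUSG00000093077) took 5.92% of the counts in 2i at 24 hr, 7.11%, 6.37%, and 4.21% with vitC at 16, 24, and 32 hr, and 0.0113% to 0.564% in the other libraries. All 10 ESC markers were detected, with summed levels of 1822 to 2084 CPM (a count scaled to its library total). Single markers moved in different directions. By the test described below, Utf1, Pou5f1, and Zfp42 fell at 32 hr against 4 hr, with log2 fold changes of -3.08, -0.50, and -0.75. Sox2, Esrrb, and Dppa5a rose, with 1.15, 0.65, and 0.74. Col1a1, Col1a2, and 3 further fibroblast markers, none at 0, summed to 113, 269, 362, and 283 CPM in 2i at 4, 16, 24, and 32 hr, and to 96.8, 412, 661, and 422 CPM with vitC. Gata4, Pdgfra, and 3 further primitive endoderm markers, none at 0 in all libraries, summed to 7.30, 8.73, 9.815, and 12.7 CPM in 2i and to 4.64, 7.03, 13.25, and 16.65 CPM with vitC. The part of these markers in the results below was not tested.

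Ribosomal proteins assemble with ribosomal RNA into the small (Rps) and large (Rpl) subunit, with which they form the machine that translates every mRNA. Their mRNAs are known as terminal oligopyrimidine (TOP) mRNAs, which start with a C followed by a stretch of pyrimidines, and through this stretch mTOR signaling sets how well they are translated. Several ribosomal proteins have further roles. Rpl5 and Rpl11 bind Mdm2 and so link ribosome assembly to p53, Rps6 is phosphorylated by the S6 kinases, and Rpl39l is a second copy of Rpl39 best known from the male germline.

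The sequence around the start site is shown for the genes on which the following sections turn, to set their first bases beside the TOP definition. The windows hold 15 bases before and 15 from the first start listed by RefSeq (GRCm38.p6), on the gene's strand. The longest run of C and T is in capitals. The 16th base is the listed start.
Rps6, chr4:86857353-86857382, minus strand: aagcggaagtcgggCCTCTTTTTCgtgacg
Rpl15, chr14:18270972-18271001, minus strand: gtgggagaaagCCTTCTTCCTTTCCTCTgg
Rpl4, chr9:64173372-64173401, plus strand: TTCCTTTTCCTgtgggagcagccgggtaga
Rpl39, chrX:37085208-37085237, minus strand: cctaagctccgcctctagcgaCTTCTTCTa
Rpl39l, chr16:10170213-10170242, plus strand: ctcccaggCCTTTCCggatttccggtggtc
Rpl27, chr11:101442230-101442259, plus strand: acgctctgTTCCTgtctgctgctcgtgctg
Rplp0, chr5:115559452-115559481, plus strand: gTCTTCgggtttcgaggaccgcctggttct
Rpl5, chr5:107900513-107900542, plus strand: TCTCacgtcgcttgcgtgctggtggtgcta
The run is 10 bases long in Rps6 and 17 in Rpl15, and in both it spans the listed start. In Rpl4 and Rpl39l the run of 11 and 7 bases ends before the listed start, and in Rpl39 a run of 8 bases lies after it. Rpl27, Rplp0, and Rpl5 show no run above 5 bases in this window. A start was listed for 60 of the 85 RP genes, with 70 starts among them. In 32 of these genes (53.3%) the window of 30 bases at any listed start held a run of at least 7 bases that were C or T. Of all 27025 genes listed, 21.3% had such a run, also counted over any listed start. The dinucleotide CG was counted 17.5 times (median) in the 250 bases before the first listed start of the RP genes and 6 times in those of all genes listed. Both Rpl39 and Rpl39l had 12.

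Levels differed widely between the RP genes in the same libraries. Rpl8, which encodes a large subunit protein, was the highest per length with a mean of 1360 RPKM (999 to 1769 over the 8 libraries). It was followed by Rplp1, a protein of the ribosomal stalk, at 951.8 RPKM, and Rpl4 at 859. At the other end were 4 pseudogene symbols, Rpl10-ps3 (0.217 RPKM), Rpl9-ps1 (0.0701), Rpl36a-ps1 (0.0436), and Rps12-ps3, which had no count in any library. In CPM, 5 of the 85 averaged at least 1000 and 22 averaged under 10. Subunit genes of the same ribosome thus had very unequal read counts. Rps27, for example, had 1.09, 2.12, 1.55, and 2.35 CPM in 2i and 1.82, 0.574, 0.631, and 1.85 CPM with vitC, where 3 counts correspond to 0.631 CPM in the smallest library.

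The RP genes are also those with the most processed copies in the genome. When each gene's annotated mRNAs were cut into stretches of 50 bases, the length of the reads, a median of 61.5% of the stretches were found in no other annotated gene, and 82 of 85 genes shared stretches with at least 1 pseudogene (median 8, highest 120 for Rpl7a). The 54 genes with at least 50% unique stretches had a median level of 43.5 RPKM, and the 31 with fewer had 10.5 RPKM. Over the 85 genes the rank correlation of level and uniqueness was 0.42, as a description of genes that share their libraries. The sources used here do not state how reads that match several places were counted, so levels of single RP genes, above all of those with few unique stretches such as Rps6 (15.4%), Rpl5 (14.6%), and Rpl7a (18.8%), can miss reads or hold those of a pseudogene. In 44 genes most unique stretches lay outside the mRNAs, in other annotated transcripts of the gene such as those with retained introns. The part of these features in the differences between libraries was not tested.

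**Figure D1:**
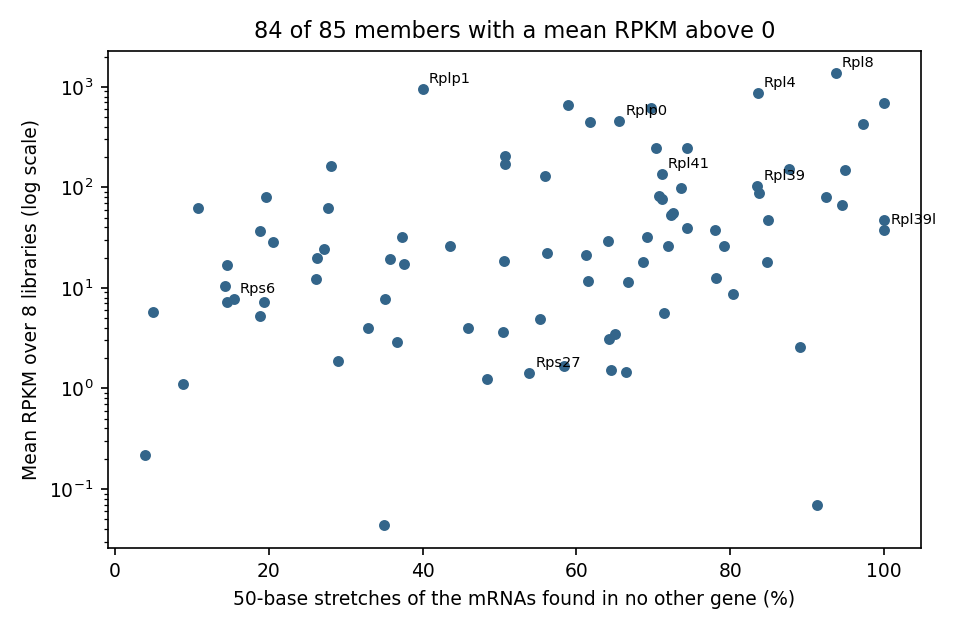
Mean RPKM over the 8 libraries (log axis) of 84 RP genes against the percentage of 50-base stretches of their mRNAs that occur in no other annotated gene, with 1 point per gene. Rps12-ps3, at 0, is not drawn. Rpl8 and Rpl4 lie at the upper right, and Rplp1 is high with 40% unique stretches.

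The summed share of all 85 RP genes fell between 4 and 16 hr in both treatments and then separated. In 2i the 4, 16, 24, and 32 hr libraries gave 1.87%, 1.46%, 1.89%, and 1.96% of their counts to these genes. With vitC they gave 1.85%, 1.42%, 1.38%, and 1.77%. The Wilson 95% intervals were at most 0.011 percentage points to either side, and cover counting error only. The difference of vitC minus 2i was -0.025 percentage points after 4 hr, -0.034 after 16 hr, -0.505 after 24 hr, and -0.197 after 32 hr. With 1 library a point this gap has no replicate check, and the 24 hr library with vitC was the smallest. Without Lars2 reads in the total, the 16 hr share was higher with vitC, at 1.53% against 1.46% in 2i. The lowest share was then that of 2i at 16 hr, beside 1.47% with vitC at 24 hr. The large subunit genes took 0.844% to 1.16% and the small subunit genes 0.532% to 0.815%, and both were lowest with vitC at 24 hr. In 2i from 4 to 24 hr their shares of all counts moved in different directions. The large subunit genes had 1.12% and 1.07%, and the small subunit genes 0.742% and 0.815%. Lars2 reads took 0.0277% and 5.92% of the total in these libraries, and the subunit shares were not computed without them. The difference in direction was thus not separated from that change in the total. The 4 genes with the most counts held 38.3% to 42.4% of the RP counts in each library. A share of the counts is relative to all other RNA. Fewer cells of a type and less RNA per cell cannot be told apart in these bulk samples.

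**Figure D2:**
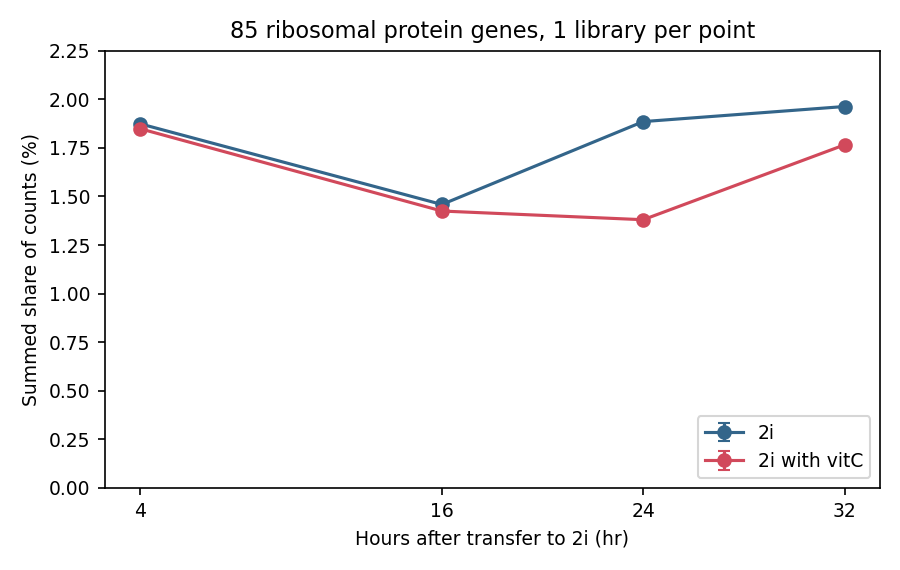
Summed share of counts on the 85 RP genes (%) against hours after transfer to 2i, with 1 library per point and Wilson 95% intervals that are smaller than the symbols. The lines with and without vitC lie together at 4 and 16 hr, at 1.85% and 1.87% and then at 1.42% and 1.46%, and lie apart at 24 hr, at 1.38% and 1.89%.

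To compare times gene by gene, an additive model of time and treatment was fitted with edgeR to the 14931 genes that reached 1 CPM in 2 libraries or more, among them 80 of the 85 RP genes. The 5 not tested were Rps27rt, whose highest level was 0.757 CPM, and the 4 pseudogene symbols with the lowest levels. With 3 residual degrees of freedom, its error measures how far 2i and vitC deviate from parallel time courses, and says nothing of replicate cultures. The edgeR fit also draws each gene's error toward a trend over all genes tested, so the p-values rest on other genes as well. A gene was called where its adjusted p-value (Benjamini-Hochberg over all genes tested) was under 0.05.

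Between 4 and 16 hr, 14 RP genes fell and none rose. These were 17.5% of the 80 tested, where 7.24% of all genes tested fell and 9.16% rose. At an unadjusted p under 0.05 there were 33 RP genes (41.2%, beside 32.2% of all genes), and DESeq2, run as an alternative, called 12 lower and 1, Rpl39l, higher (0.73, adjusted p = 0.0486). The median log2 fold change of the RP genes was -0.39 (-0.35 in each treatment taken alone), against 0.01 for all genes, and 71 of 80 values were below 0. The largest fall was that of Rpl41, the smallest ribosomal protein, at -1.15 ± 0.36 (SE). In the order of the times it had 232, 64.2, 92.2, and 296 CPM in 2i, and 161, 116, 155, and 147 CPM with vitC. Most of its fall thus lay in 2i at 16 hr, and without that library it was -0.57 with an adjusted p of 0.379. Rpl27, a large subunit gene, fell by 0.91 on the log2 scale (SE 0.17, adjusted p = 0.00476). Rps6 fell by 0.95 (SE 0.27, adjusted p = 0.032), and Rpl18 by 0.86 (SE 0.27, adjusted p = 0.045). Among the others were Rpl36a, Rpl36al, Rpl14, Rpl19, Rpsa, Rps14, Rpl15, Rpl8, and Rplp0, with log2 fold changes of -0.85 to -0.58. The count rested on single libraries. It was 2 without vitC at 4 hr, 6 without 2i at 16 hr, and 8 without each of 2i at 4 hr, 2i at 32 hr, and vitC at 32 hr. The median lay between -0.49 and -0.28 when any 1 library was left out. With the share of Lars2 reads as a covariate 2 were called. The presumed lanes differ in this comparison.

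Within a presumed lane, between 4 and 24 hr, 9 RP genes fell and none rose. This is 11.2% of those tested, beside 8.98% of all genes that fell, and thus near the background. Risers were 11.5% of all genes and 0 of 80 RP genes, and 20 RP genes (25%) had an unadjusted p under 0.05, beside 34.5% of all genes. DESeq2 called 8 lower and 1, Rpl4, higher. The median was -0.20, but it came mainly from vitC. It was -0.05 in 2i and -0.44 with vitC, and -0.02 when the vitC library at 24 hr was left out. Rps6 fell by 0.87 (SE 0.28, adjusted p = 0.041), Rpl27 by 0.82 (SE 0.17, adjusted p = 0.0066), and Rpl15 by 0.66 (SE 0.16, adjusted p = 0.012). Rps14, Rplp0, Rpl13a, Rpl30, and Rpl5 had log2 fold changes of -0.64 to -0.43. The opposite sign was seen, without passing the test, in Rpl4 at 0.46 ± 0.17 (SE, adjusted p = 0.079) and Rpl39 at 0.53 ± 0.19 (SE, adjusted p = 0.068) by edgeR. The count of 9 became 1 without vitC at 4 hr, 2 (1 of them higher at 24 hr) without vitC at 24 hr, 4 without 2i at 24 hr or at 32 hr, 5 without vitC at 32 hr, and 15 without either of the 16 hr libraries. With the share of Lars2 reads as a covariate none of the 9 passed, and Rpl13a and Rpl30 turned positive.

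At 32 hr against 4 hr, 7 RP genes fell (8.75%, beside 11.8% of all genes) and 1 rose (1.25%, beside 13.5% of all genes). The riser was Rpl39l, described further on. DESeq2 called the same 8 RP genes in the same directions, and also Rpl10 as lower (-0.72, adjusted p = 0.0473). Rpl30 fell by 0.72 (SE 0.16, adjusted p = 0.0061), Rpl27 by 0.71 (SE 0.17, adjusted p = 0.0093), Rpl5 by 0.67 (SE 0.14, adjusted p = 0.004), and Rpl15 by 0.64 (SE 0.15, adjusted p = 0.0098). Rpl31, Rplp0, and Rpl27a had -0.57, -0.53, and -0.47. The median was -0.13 (-0.07 in 2i and -0.18 with vitC), with 53 of 80 values below 0. An unadjusted p under 0.05 was found for 17 RP genes (21.2%), beside 38.7% of all genes. The 8 calls became 2 without 2i at 32 hr, 3 without vitC at 32 hr, 4 without vitC at 4 hr, and 1 with the share of Lars2 reads as a covariate. These time points also lie on different presumed lanes.

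From 16 to 32 hr, again within a presumed lane, no RP gene passed the threshold by edgeR, where 0.335% of all genes rose and 0.248% fell. 19 RP genes (23.8%) had an unadjusted p under 0.05, beside 14.3% of all genes, and DESeq2 called 3, Rpl8, Rpl14, and Rps14, all higher at 32 hr. The median was 0.20 (0.18 in 2i and 0.20 with vitC), and 62 of 80 values were above 0. The smallest p values were those of Rpl14 at 0.91 ± 0.22 (SE, adjusted p = 0.088) and Rps14 at 0.65 ± 0.16 (adjusted p = 0.091). Rpl14 had 212 CPM at 16 hr and 576 at 32 hr in 2i, but 227 and 290 CPM with vitC, so that its 32 hr level was high in 2i alone. Without the vitC library at 16 hr 10 RP genes rose.

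**Figure D3:**
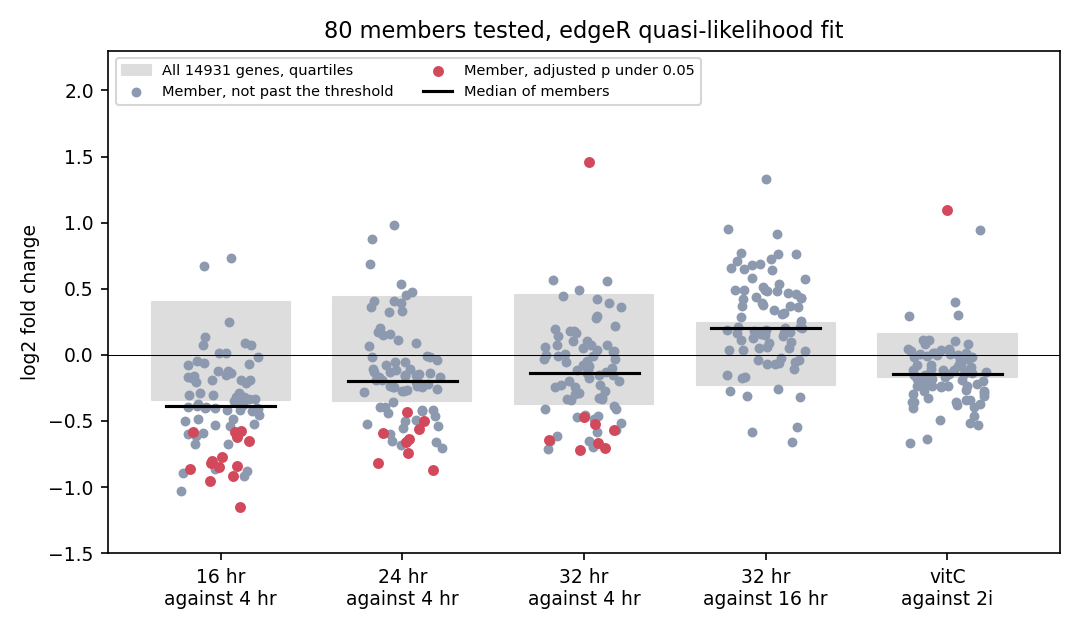
log2 fold changes of the 80 RP genes tested, 1 point per gene, for each of the 4 time comparisons and for vitC against 2i, with genes past the threshold in red and the RP median as a black line. Gray boxes span the quartiles of all 14931 genes. The RP median lies at -0.39 for 16 hr against 4 hr and at 0.20 for 32 hr against 16 hr, and the red point far above 0 is Rpl39l.

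Across the 3 comparisons with 4 hr, which share the 4 hr libraries, 19 RP genes fell at 1 time or more (23.8%, beside 15.3% of all genes). Rpl15, Rpl27, and Rplp0 fell at all 3 (3.75%, beside 4.38% of all genes). Rplp0 (ENSMUSG00000067274), whose product is the base of the ribosomal stalk and whose mRNA often serves as a reference in qPCR, had 1041, 762, 691, and 644 CPM in 2i and 959, 600, 610, and 735 CPM with vitC at 4, 16, 24, and 32 hr. Rpl27 had 55.2, 29.8, 28.4, and 31.8 CPM in 2i, and 41.2, 21.95, 25.2, and 26.8 CPM with vitC. Rpl15 had 131, 108, 93.0, and 101 CPM in 2i, and 131, 72.6, 72.2, and 69.0 CPM with vitC. In all 3 genes every later library was below both 4 hr libraries.

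Rpl5 decreased at each step in both treatments, from 83.4 to 67.4, 62.8, and 51.8 CPM in 2i and from 83.5 to 64.7, 58.7, and 52.8 CPM with vitC. Rpl30, a large subunit gene, had 89.4, 85.8, 68.4, and 58.7 CPM in 2i and 102, 60.7, 64.8, and 57.4 CPM with vitC. Rpl11, the partner of Rpl5 in binding Mdm2, did not pass the test at any time. It had 10.6, 10.1, 13.8, and 11.4 CPM in 2i and 8.89, 11.1, 10.1, and 10.1 CPM with vitC. Rps6 had 15.1, 9.87, 11.4, and 9.996 CPM in 2i and 22.2, 9.33, 7.57, and 12.9 CPM with vitC, with the 4 hr library with vitC the highest. Only 15.4% of its stretches are unique.

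In all, 15 RP genes (18.8% of those tested) were lower in each of the 6 later libraries than in both 4 hr libraries, beside 18.9% of all genes. 12 of these are among the 19 that fell, and Rpl3, Rpl23, and Rps7 did not pass the test. The converse held for 1 RP gene, Rpl28 (1.25%), beside 18.7% of all genes. Rpl28 had 4.37, 6.29, 6.26, and 4.78 CPM in 2i and 4.10, 7.61, 9.68, and 8.24 CPM with vitC, with log2 fold changes against 4 hr of 0.56 to 0.87 that did not pass the test. Few RP genes thus stood on the rising side, while the number on the falling side was near that among all genes.

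**Figure D4:**
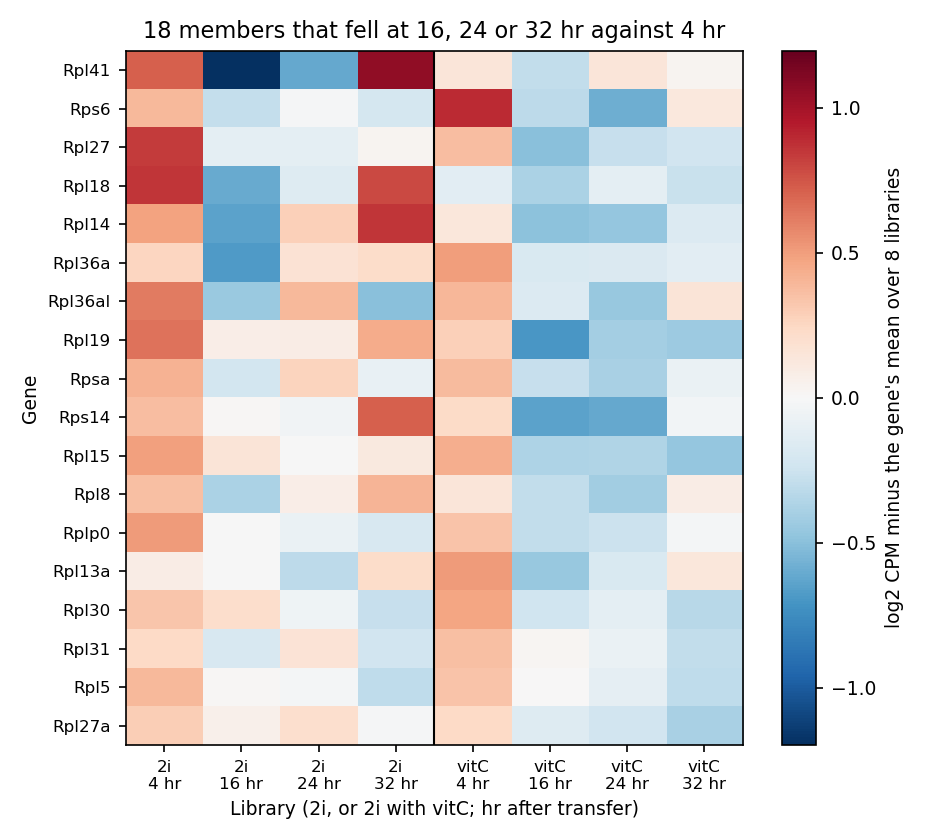
log2 CPM of 18 of the 19 RP genes that fell at 16, 24, or 32 hr against 4 hr, less each gene's mean over the 8 libraries, with genes in rows and libraries in columns. Both 4 hr columns are mostly red, and Rpl41, Rpl18, Rpl14, and Rps14 are red again in 2i at 32 hr.

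Among the genes chosen for their roles, those of the stalk differed. Rplp0 fell, whereas Rplp1 had 0.08, 0.39, and 0.28 and Rplp2 had -0.30, -0.23, and -0.24 as log2 fold changes at 16, 24, and 32 hr against 4 hr, none past the threshold. Rpsa, also known as the laminin receptor, fell at 16 hr (-0.65 ± 0.19, SE, adjusted p = 0.036) and not past the threshold later. Rps14 and Rps19, both known from inherited or acquired anemias, had log2 fold changes of -0.62 and -0.54 at 16 hr, of which only the first passed. Rps14 had 259, 211, 195, and 329 CPM in 2i and 242, 129, 130, and 199 CPM with vitC. Rps27a, which is made as a fusion with ubiquitin, stayed between 26.0 and 42.2 CPM. Rps25 and Rpl38, known for the translation of selected mRNAs, had -0.39 and -0.34 at 16 hr with adjusted p of 0.35 and 0.47. Rpl13a was called at 24 hr (-0.56 ± 0.18, SE), and Rps2, Rps3, Rpl3, Rpl4, Rpl10, Rpl10a, Rpl22, Rpl23, Rpl26, and Rpl39 passed at no time by edgeR.

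With time as a block, vitC raised 1 RP gene, Rpl39l, and lowered none, where 0.107% of all genes rose and 0.0603% fell. 14 RP genes (17.5%) had an unadjusted p under 0.05, beside 13.8% of all genes, and DESeq2 called Rps14 lower (-0.52, adjusted p = 0.00573) beside Rpl39l. The median log2 fold change of the 80 genes was -0.14, against -0.02 for all genes, and 59 values were below 0. The time points were unequal. The median of the vitC library against its 2i partner was -0.05, -0.04, -0.45, and -0.09 in the order of the times, and it was -0.03 in the fit without the 24 hr libraries. At 24 hr 68 of 80 genes were lower with vitC. The nearest to the threshold after Rpl39l were Rps14 (-0.53 ± 0.11, SE, adjusted p = 0.067) and Rpl19 (-0.63 ± 0.17, adjusted p = 0.11). Rps14 was lower with vitC at each time, by 0.14, 0.65, 0.57, and 0.75 on the log2 scale, as were 12 RP genes in all (15%, beside 10.7% of all genes). 1 RP gene, Rpl39l, was higher at all 4 times (1.25%, beside 11% of all genes). A vitC effect that changed linearly with hours was found in none of the RP genes and in 0% of all genes by edgeR, with 2 RP genes (Rpl9 and Rps2) and 431 genes in all at an unadjusted p under 0.05.

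Rpl39l (ENSMUSG00000039209) was the RP gene that rose with time and with vitC. In 2i it had 13.6, 16.8, 19.5, and 25.4 CPM in the order of the times. With vitC it had 19.2, 44.8, 34.1, and 77.0 CPM, from 253, 312, 162, and 916 counts. The level with vitC was higher at each time, by 1.41, 2.66, 1.75, and 3.03 times. The 3 later libraries with vitC were above every 2i library, and that of 4 hr lay within the range of 2i. The fitted effect of vitC was 1.09 ± 0.18 (SE, adjusted p = 0.0396), and that of 32 hr against 4 hr was 1.46 ± 0.25 (adjusted p = 0.0016). In 2i alone the log2 ratio of 32 to 4 hr was 0.89, and with vitC it was 2.01. As a vitC effect that changes with hours this difference did not pass the threshold. The vitC call was lost, with adjusted p from 0.098 to 0.19 and log2 fold changes from 0.92 to 1.18, when any 1 library other than those at 4 hr was left out. It was also lost with the share of Lars2 reads as a covariate (0.79, adjusted p = 0.27) and without the time block (1.22, adjusted p = 0.964). In all, it was lost in 11 of the 20 alternative settings run. The time call was lost in 3 of 18 alternative settings. Among them were the fit without the vitC library at 32 hr (1.12) and that with the share of Lars2 reads as a covariate (0.36, adjusted p = 0.70). The summed fibroblast markers given above were likewise higher in the later libraries, and from 16 hr on higher with vitC. That sum rested mostly on Col1a1 and Col1a2, at 411 and 229 CPM with vitC at 24 hr. At 32 hr against 4 hr, 3 of the 5 markers were called higher and 1 lower. With vitC 0 were called. The summed primitive endoderm markers were higher at each later time in both treatments, and higher with vitC at 24 and 32 hr. Of the 4 tested, 2 were called higher at 32 hr against 4 hr and 0 with vitC, where 2 fitted effects were above 0. Gata4 was lower with vitC at each time, at 0.421 CPM against 2.24 in 2i at 24 hr. The part of either marker list was not tested.

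Rpl39, from which Rpl39l derives and whose product lines the exit tunnel of the ribosome, had another course. It had 134, 114, 225, and 114 CPM in 2i and 140, 156, 161, and 139 CPM with vitC. Its highest library was that of 2i at 24 hr, and the vitC effect was 0.08 ± 0.14 (SE, adjusted p = 0.84). Rpl39l thus came to 22.4% of the CPM of Rpl39 in 2i and 55.3% with vitC at 32 hr, from 10.2% and 13.7% at 4 hr, without a correction for length. All 50-base stretches of Rpl39l were unique, and 83.5% of those of Rpl39. Among the paralogs left out of the rule, Rpl10l, likewise a second copy known from the male germline, had 28.3, 26.0, 30.0, and 30.9 CPM in 2i and 30.3, 35.3, 38.9, and 63.7 CPM with vitC. It rose at 32 hr against 4 hr (0.62, adjusted p = 0.048) and did not pass the test for vitC (0.49, adjusted p = 0.16).

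**Figure D5:**
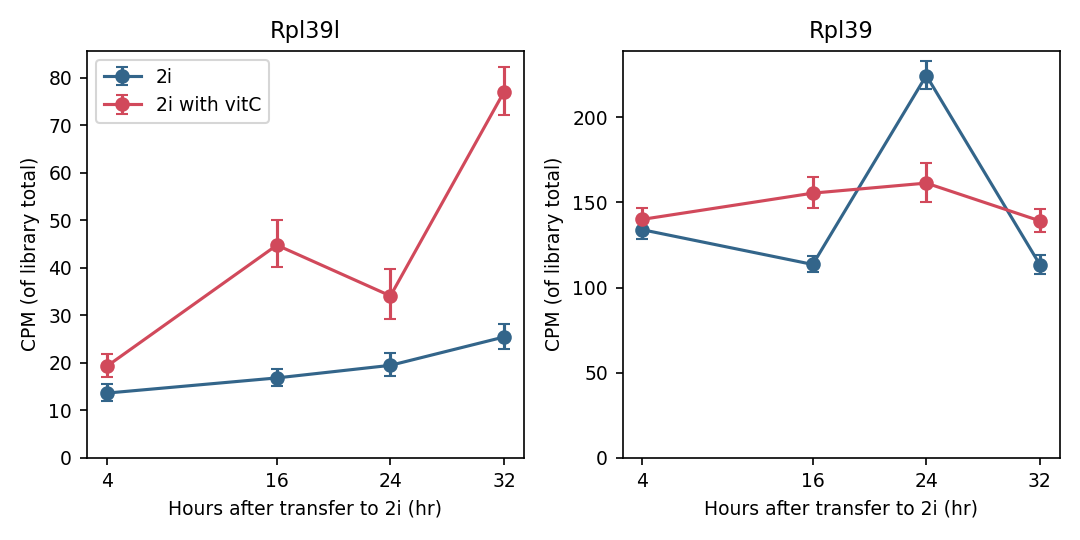
CPM of Rpl39l (left) and Rpl39 (right) against hours after transfer to 2i, with 1 library per point and Wilson 95% intervals for counting error. Rpl39l reaches 77.0 CPM with vitC and 25.4 CPM in 2i at 32 hr, and Rpl39 peaks at 225 CPM in 2i at 24 hr.

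Rpl36al, the other second copy tested, and Rps19bp1, the gene outside the subunits, rose in no comparison. Rpl36al had 74.4, 37.1, 63.1, and 34.3 CPM in 2i and 65.9, 43.6, 35.1, and 55.1 CPM with vitC, and fell at 16 hr (-0.82 ± 0.26, SE, adjusted p = 0.0495). Rps19bp1 had 76.4, 34.6, 46.7, and 58.1 CPM in 2i and 55.0, 52.4, 40.8, and 48.5 CPM with vitC and passed no test. Counted over the 76 subunit genes alone, 13 fell at 16 hr, 9 at 24 hr, and 7 at 32 hr against 4 hr. Over the 80 RP genes tested the counts were 14, 9, and 7 (17.5%, 11.2%, and 8.75%). Of all genes tested, 7.24%, 8.98%, and 11.8% fell at these times.

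Other components of translation give the setting. The 76 mitochondrial ribosomal protein genes tested encode a separate ribosome. Of these, 19 fell at 16 hr, 16 at 24 hr, and 18 at 32 hr against 4 hr. These were 25%, 21.1%, and 23.7%, beside 7.24%, 8.98%, and 11.8% of all genes. At these times 1, 1, and 2 rose (1.32%, 1.32%, and 2.63%), beside 9.16%, 11.5%, and 13.5% of all genes. The medians of the 76 were -0.35, -0.37, and -0.25. None changed with vitC, and their summed share was 0.38% to 0.539%. Among 25 translation factors and growth-related mRNAs, 4, 5, and 5 fell and 0, 3, and 1 rose at these times, with medians of -0.24, -0.08, and -0.08. Among 21 chaperones and regulators of ribosomal proteins, 5, 4, and 5 fell and 3, 5, and 4 rose. Both of these lists are short, and the shares of all genes just given are their background too. Fau and Rack1, subunit genes whose symbols fall outside the rule, passed no test at any time or with vitC. Rack1 had 1350 to 2765 CPM, lowest with vitC at 24 hr, as was the summed share of the RP genes in all counts.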

How the data were processed

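RNA-seq counts from 8 libraries of E14 ESCs were used. The counts the authors deposited are whole reads per Ensembl gene, not normalized. The submitters' notes name GSNAP, HTSeq, and mm9 (NCBIM37). The annotation, the strand setting, and the treatment of reads with several matches are not given in the sources used here. Identifiers were paired with symbols, biotypes, and merged exon lengths of GENCODE M21 (32604 of 37263 matched), and no coordinates of that build were tied to counts. Lanes were read from numbers in the deposited files' names, which no label explains. The RP genes and all lists were chosen with earlier results of these data known.

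CPM are relative to each library's total. RPKM, log2 CPM (prior count 2), and tests used TMM factors. Genes that reached 1 CPM in 2 libraries or more were tested with edgeR 4.0.16 (quasi-likelihood, Benjamini-Hochberg, threshold 0.05) in R 4.3.3, in an additive model of time and treatment on all 8 libraries. A linear change of the vitC effect with hours was added in a second model. Standard errors were taken as the log2 fold change over the root of the F statistic. Single shares have Wilson 95% intervals and a floor of 3 counts, for counting error only. No library pair held identical values.

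Genes named were those chosen for their roles, the 4 highest and 4 lowest by RPKM, the 4 largest rises and falls of each comparison, and the second copies; a few of these are not reported here. On simulated counts of 14931 genes, 24 hr against 4 hr recovered 74% of 100 genes changed 2-fold and 99% of 100 changed 4-fold. For vitC these were 98% and 100%. There were 11 and 8 false calls, and the changed genes had 5 CPM or more on average. Changes under 2-fold, the size of most RP changes called here, were not simulated, so these figures do not give their recovery. Apart from the changed genes, simulated means were flat over the 8 libraries, and the spread followed the trend over all genes. In the data 1720 genes rose and 1341 fell at 24 hr against 4 hr. Recovery and false calls in the data can therefore differ from these figures. The alternatives were DESeq2 1.42.0, other scalings, no filter, a correction for GC content and length, the share of Lars2 reads as a covariate, dropping the treatment or the time from the model, and leaving out time points. Leaving out single libraries and the 2 subsets of RP genes were chosen after seeing the data. Start-site windows came from RefSeq promoters (GRCm38.p6).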

Additional observations from a re-analysis of the deposited data

Results flagged for a closer look

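The summed share of the RP genes moved in opposite directions with and without vitC in 2 comparisons. Between 4 and 24 hr it changed by 0.0111 percentage points in 2i and by -0.469 with vitC. Between 4 and 32 hr it changed by 0.0887 points in 2i and by -0.0834 with vitC. Without Lars2 reads in the total, the shares at 4 and 32 hr were nearly equal with vitC, at 1.849% and 1.843%. In 2i they were 1.875% and 1.974%. At 24 hr the shares on that basis were 1.474% with vitC and 2.004% in 2i. With 1 library for each combination, the difference between the treatments was not tested.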

How the results depend on the processing

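With 1 library per combination, counts of called RP genes depended strongly on the setting, while the direction of the medians over the RP genes did not change under any alternative run. Counts under the alternatives, here and above, are given without the share of all genes called in the same run. They show how far the calls moved and do not set the RP genes apart from other genes. Library totals, DESeq2 size factors, TMM without the RP genes and Lars2, and the correction for GC content and length left the counts within 1.5 times. Without a filter on low counts, 18 genes were called at 24 hr, 29 at 16 hr, and 16 at 32 hr against 4 hr, 13 at 32 hr against 16 hr, and 9 with vitC. DESeq2 called 3 at 32 hr against 16 hr and 2 with vitC. With the share of Lars2 reads as a covariate, 0, 2, and 1 were called at 24, 16, and 32 hr against 4 hr and 0 with vitC, and the medians were -0.468, -0.556, and -0.36. Rpl13a (0.516) and Rpl30 (0.172) reversed there at 24 hr, and the cause was not tested. Without the treatment term the counts were 2, 2, and 5, and without the time block 0 were called with vitC, as among the subunit genes alone. The median for 24 hr against 4 hr was -0.0541 in 2i and -0.442 with vitC, and that for vitC was -0.454 at 24 hr. Leaving out 1 time point or library gave 1 to 15 calls at 24 hr (medians -0.463 to -0.0205), 2 to 18 at 16 hr, and 2 to 11 at 32 hr against 4 hr, 0 to 10 at 32 hr against 16 hr, and 0 to 3 with vitC. Without Lars2 reads in the total the summed share was 2% and 1.97% in 2i at 24 and 32 hr, and 1.53%, 1.47%, and 1.84% with vitC from 16 hr on. Without Rps19bp1 and the second copies it was 1.86%, 1.45%, 1.87%, and 1.95% in 2i and 1.83%, 1.41%, 1.37%, and 1.75% with vitC. The labels give no replicate numbers, and libraries were paired by time alone, through the time block. Depth limits the genes of a few CPM most, since 3 counts are 0.163 to 0.631 CPM.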
